A study of Mus musculus with 6 samples.

Results

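The mitochondrial genome of the mouse was described through its 37 annotated genes, which are all the rows of the mitochondrial chromosome among 56884 gene rows of a bulk RNA-seq count table. They comprise 13 protein genes, 2 ribosomal RNA (rRNA) genes and 22 transfer RNA (tRNA) genes. The table holds 3 spleens of mice at passage 1 (P1 replicates 3, 4 and 5, numbered as labelled) and splenic B cells, purified from 3 wild-type (WT) mice. The P1 mice belong to an adoptive transfer model in which cells carrying the Eµ-SOX11CCND1 transgenes, made to resemble human mantle cell lymphoma, were passed into recipient mice. The Eµ enhancer is a regulatory element of the immunoglobulin heavy chain locus that directs a transgene to the B lineage. The P1 samples are labelled as spleen, without the B cell selection that the WT labels name, so they can also hold the recipients' own cells. The WT samples carry no transgene in their labels, and their columns name the BL6 strain. Ages, sexes, the recipients' strain, whether the P1 mice received cells of 1 donor, and whether poly(A) RNA was selected or rRNA removed are not given in the sources used here. All libraries were made from 50 ng of total RNA with a strand-marking kit. No WT column carries a mouse number, so they are named WT A, WT B and WT C by their place in the table. Genotype, tumour and cell selection differ together between the groups and cannot be told apart, and all p-values reflect only how far these 6 samples spread.

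Mitochondria keep a small circular genome of their own, present in many copies per cell. Both of its strands are transcribed into long precursors, which are cut at the tRNAs that lie between the other genes. The proteins it encodes are core subunits of respiratory complexes I, III and IV and of ATP synthase, and its rRNAs and tRNAs serve the mitochondrial ribosome that translates them. Everything else that this system needs, from the RNA polymerase to the remaining subunits, is encoded in the nucleus. Cells that lose their mitochondria, as maturing red cells do, lose these transcripts with them.

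In the table, 28 of the mitochondrial genes lie on the plus strand. The other 9 lie on the minus strand and are mt-Nd6 and 8 tRNA genes. The tRNA genes for proline and glutamate, mt-Tp and mt-Te, held most tRNA counts in the 5 libraries where either was detected, and both lie on the minus strand. Their RNA strands, at chrM:15356-15422 and chrM:14071-14139, are shown because the tRNA values rest on them.
mt-Tp: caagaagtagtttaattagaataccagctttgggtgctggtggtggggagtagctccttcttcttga
mt-Te: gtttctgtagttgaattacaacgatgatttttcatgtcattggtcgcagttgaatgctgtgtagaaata

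The nucleus carries copies of mitochondrial DNA, and one of them bears on what each gene's count can hold. Transcripts of 17 nuclear rows matched mitochondrial genes over at least 100 bases at 90% identity or more. A row of 7 annotated genes on the minus strand of chromosome 1 (GRCm39 chr1:24650616-24655278) matched bases 6390 to 11042 of the mitochondrial genome, with 2 mismatches in 4140 matched bases. These rows are Gm29216 (a copy of the end of mt-Co1), Gm28661 (mt-Co2), Gm10925 (mt-Atp6), Gm28437 (mt-Co3), Gm28438 (mt-Nd3), Gm10222 (mt-Nd4l) and Gm28439 (the start of mt-Nd4). Between the matches to mt-Co2 and mt-Atp6 the same gap of 233 bases stands in both genomes, and mt-Atp8 starts inside it. The sequences below show how little separates the copies: the first 60 bases of mt-Atp6 (chrM:7927-7986) and of Gm10925 were identical. The capitals mark the 2 differing bases, counted from the first base of the mitochondrial gene: A1066T where the match to mt-Co1 begins at base 1063 (chrM:6373-6413), and T3C in mt-Nd3 (chrM:9459-9481).
mt-Atp6: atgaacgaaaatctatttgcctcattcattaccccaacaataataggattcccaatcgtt
Gm10925: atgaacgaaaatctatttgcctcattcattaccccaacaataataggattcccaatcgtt
mt-Co1: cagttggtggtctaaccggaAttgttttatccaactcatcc
Gm29216: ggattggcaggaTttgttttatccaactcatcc
mt-Nd3: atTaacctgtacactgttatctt
Gm28438: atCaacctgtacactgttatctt

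Genes inside the copied stretch had far fewer counts per base than genes outside it, in every library. The 5 protein genes wholly outside had 40.9, 44.3 and 41.3 times the counts per kb of the 6 wholly inside it in P1 3, 4 and 5, against 52.9, 44.8 and 52.0 times in WT A, B and C. The 7 copy rows themselves held 2607, 9808 and 48 counts in P1 3, 4 and 5, against 484, 1260 and 486 in WT A, B and C. That was 0.739, 0.752 and 0.705% of the mitochondrial total in the P1 spleens and 0.608, 0.778 and 0.672% in the WT B cells. How reads that fit both places were counted is not given in the sources used here, so the values of mt-Co2, mt-Atp8, mt-Atp6, mt-Co3, mt-Nd3 and mt-Nd4l, and of parts of mt-Co1 and mt-Nd4, are uncertain as levels. Of mt-Co1, 483 of 1545 bases lie inside the stretch, and of mt-Nd4, 876 of 1378.

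Library totals ran from 7510327 to 10363396 counts in the P1 spleens and from 12196413 to 14266132 in the WT B cells. Markers of other blood cells set the groups apart, by the edgeR test described with the mitochondrial genes, in which 16.9% of all genes were higher and 11.0% lower in P1 spleens at an adjusted p of 0.05. All 15 red cell precursor markers were higher in P1 spleens, with summed levels of 43683, 130893 and 7971 counts-per-million (CPM, of the library total) in P1 3, 4 and 5, against 115 to 162 CPM in WT B cells. Pan-B cell markers summed to 4320.5, 1062 and 10110 CPM in the same spleens, against 23138 to 23626 CPM in WT B cells, and 13 of 15 were lower. All 14 neutrophil and all 12 T cell markers were higher in P1 spleens, by sums of 672 to 9501 and 180.2 to 857 CPM against 4.63 to 12.7 and 50.5 to 73.1 CPM in WT B cells. Of 12 macrophage markers, 3 were higher and 9 did not pass, with sums of 455 to 4013 CPM in P1 spleens against 339 to 907 CPM in WT B cells. In bulk samples, fewer cells of a type and less RNA per cell cannot be told apart.

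The mitochondrial share of all counts differed most among the P1 spleens, which held both the highest and the lowest values of the series. Mitochondrial genes took 3.40, 17.4 and 0.0854% of counts in P1 3, 4 and 5, against 0.569, 1.13 and 0.593% in WT A, B and C. P1 4 stood 15.3-fold and P1 3 3.00-fold above the highest WT library, while P1 5 lay below every WT library, the lowest of which held a share 6.66-fold larger. The highest and lowest P1 shares differed 203-fold and those of WT B cells 1.99-fold. The means, 6.95 ± 9.17% in P1 spleens and 0.766 ± 0.320% in WT B cells (SD, n = 3 each), did not differ beyond this spread (two-sided exact permutation test, p = 0.4, adjusted p = 0.6 over the 12 library values tested this way, all of which overlapped between the groups with adjusted p of 0.6 to 0.9). The smallest p that 3 against 3 allows is 0.1.

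**Figure D1:**
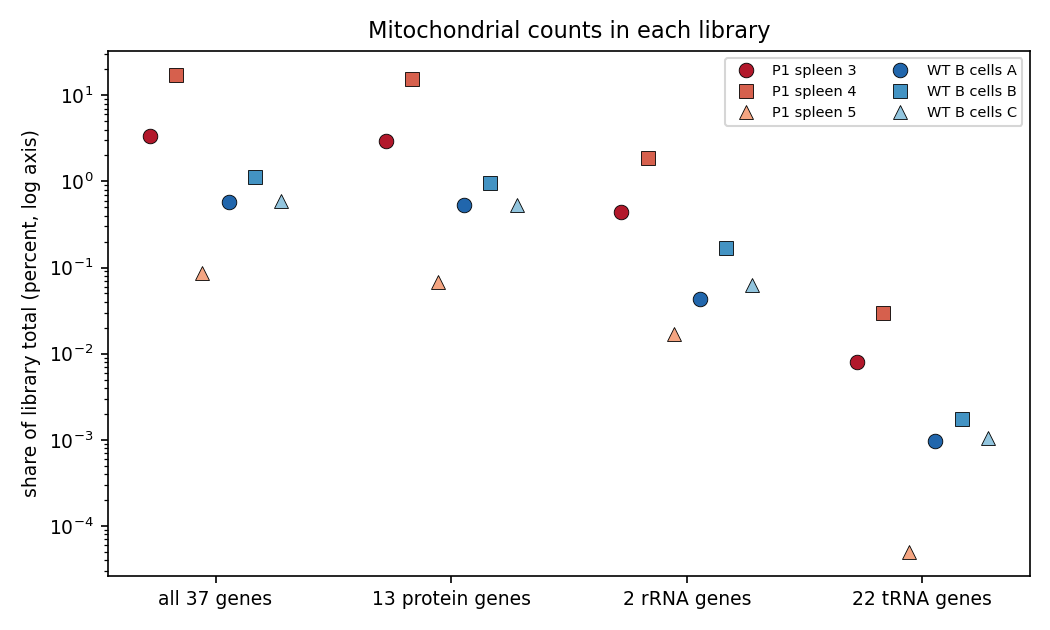
Mitochondrial counts as a percent of all counts in each library (log axis), for all 37 genes and for protein, rRNA and tRNA genes, P1 spleens left of WT B cells. P1 4 and P1 3 lie above and P1 5 below all 3 WT libraries in each class of gene.

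All classes of gene followed that order. Protein genes took 2.96, 15.5 and 0.0686% of all counts in P1 3, 4 and 5, against 0.526, 0.965 and 0.529% in WT A, B and C. The rRNA genes took 0.438, 1.88 and 0.0168% in the P1 spleens, against 0.0427, 0.168 and 0.0630% in WT B cells. The tRNA genes took 0.00791, 0.0296 and 5.02e-05% in the P1 spleens, against 0.000959, 0.00174 and 0.00104% in WT B cells. The groups overlapped in every class, since P1 5 lay below the WT libraries and the other P1 spleens above them. By CPM, 18 of the 37 genes had P1 3 and P1 4 above all WT libraries and P1 5 below all of them: 12 protein genes, both rRNA genes and 4 tRNA genes. The order was read from the summed shares of these same genes, so such counts describe it and do not test it. Among all 15462 genes with enough counts to test, 194 (1.25%) had this order, and 16 of the 17 mitochondrial genes tested were among them. The exception, mt-Nd3, had 0.251 CPM in P1 5 against 0.215 CPM in WT A. All 7 chromosome 1 copy rows, which can share reads with the mitochondrial genes, had the order too. It ran with the red cell precursor markers within the P1 group, where P1 4 was highest and P1 5 lowest in both, but not across groups: P1 5 had more red cell marker CPM than any WT library and a smaller mitochondrial share. Pan-B cell marker sums, 4320.5, 1062 and 10110 CPM in P1 3, 4 and 5, ran in the reverse order within the P1 group. Neutrophil, T cell and macrophage marker sums had neither order, with P1 3 highest and P1 4 lowest. The part of any cell type in the shares was not tested.

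**Figure D2:**
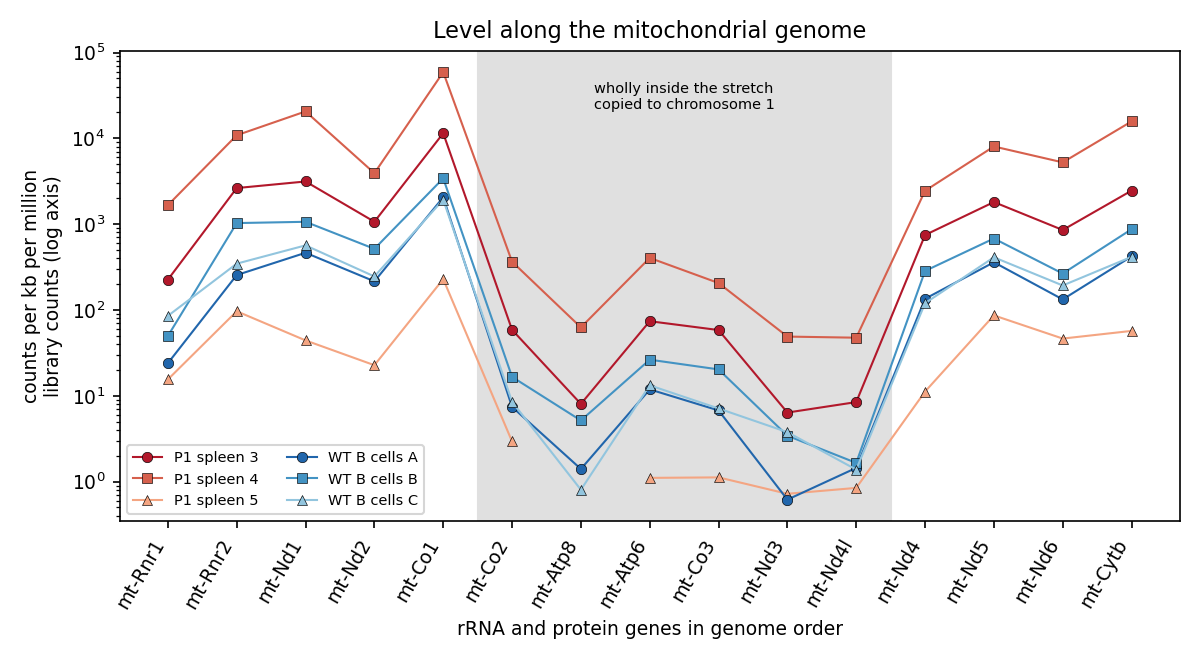
CPM per kb of gene (log axis) for the rRNA and protein genes in genome order, 1 line per library, with the genes wholly inside the copied stretch shaded. The lines drop in the shaded stretch in all libraries, P1 4 lies highest, and P1 5 has no point for mt-Atp8, where it had 0 counts.

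In the test across all genes, no mitochondrial gene passed an adjusted p of 0.05, although all 17 estimates were positive. Of all genes tested, 27.9% passed (edgeR's quasi-likelihood test, Benjamini-Hochberg adjustment), 16.9% as higher and 11.0% as lower in P1 spleens. The mitochondrial estimates ran from a log2 fold change of 1.40 to one of 4.55, with a median of 4.04 against 0.02 over all genes, and standard errors of 1.14 to 1.76. At an unadjusted p of 0.05, 14 of 17 passed, where 22.4% of all genes passed as higher, and DESeq2 called 9 of 17 higher where it called 20.1% of all genes higher. The result turned on single libraries. Without P1 5, all 19 genes then tested were higher, by log2 fold changes of 1.98 to 5.37 with adjusted p of at most 0.0400, where 19.4% of all genes were called higher. Without P1 4 none passed, and the estimates were 0.10 to 2.17. Without P1 3, 1 passed, mt-Tg. Leaving out any library other than P1 5 gave 0 or 1 calls.

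The rRNA genes encode the RNA of the small (mt-Rnr1) and large (mt-Rnr2) subunits of the mitochondrial ribosome. mt-Rnr2 had 4165, 17178 and 153 CPM in P1 3, 4 and 5, against 404, 1628 and 548 CPM in WT A, B and C. mt-Rnr1 had 216, 1590.1 and 14.8 CPM in the P1 spleens, against 22.9, 47.5 and 81.5 CPM in WT B cells. P1 4 and P1 3 stood above and P1 5 below all WT libraries for both genes. Their log2 fold changes were 3.85 ± 1.55 and 4.43 ± 1.56 (± SE, adjusted p = 0.0990 and 0.0668 by edgeR). Per kb of gene, mt-Rnr2 had 11.7, 6.52 and 6.23 times the counts of mt-Rnr1 in the P1 spleens, against 10.6, 20.7 and 4.06 times in WT B cells. The WT libraries spread more widely in this ratio than the P1 spleens and enclosed them (exact permutation p = 0.7). With WT B left out the difference of the means changed sign, to 0.785.

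Complex I, the NADH dehydrogenase that feeds electrons into the chain, draws 7 of its core subunits from this genome. mt-Nd5 had 3299, 14658 and 158 CPM in P1 3, 4 and 5, against 656, 1241 and 749 CPM in WT A, B and C. mt-Nd1 had 3007, 19694 and 42.3 CPM in the P1 spleens, against 444, 1019 and 542 CPM in WT B cells. Relative to each other, these neighbours in abundance differed among the P1 spleens. Per kb, mt-Nd1 had 1.74, 2.56 and 0.511 times the counts of mt-Nd5 in P1 3, 4 and 5. In WT A, B and C it had 1.29, 1.57 and 1.38 times. P1 3 and P1 4 thus lay above the WT range and P1 5 below it. mt-Nd2 had 1107, 4072 and 23.6 CPM in the P1 spleens, against 224, 535 and 255 CPM in WT B cells. mt-Nd4 had 1030, 3374 and 15.4 CPM, against 186, 393 and 165 CPM. The small subunit genes mt-Nd3 and mt-Nd4l, inside the copied stretch, gave 23, 128 and 2 counts and 26, 106 and 2 counts in P1 3, 4 and 5, against 3, 17 and 16 and 6, 7 and 5 counts in the WT B cells; mt-Nd4l had too few to be tested. The log2 fold changes of mt-Nd1, mt-Nd2, mt-Nd4 and mt-Nd5 were 4.35 ± 1.76, 3.14 ± 1.46, 3.34 ± 1.49 and 3.58 ± 1.44 (± SE), with adjusted p of 0.0990 to 0.146 by edgeR. As a class, complex I genes made up 30.1, 28.8 and 38.4% of mitochondrial protein gene counts in P1 spleens and 30.1, 34.5 and 34.3% in WT B cells, so the groups overlapped (exact permutation p = 0.9).

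mt-Nd6 is the complex I gene on the minus strand. It had 443, 2723 and 24.1 CPM in P1 3, 4 and 5, against 68.9, 138 and 100.1 CPM in WT A, B and C, a log2 fold change of 4.22 ± 1.50 (± SE, adjusted p = 0.0688 by edgeR). Its last 14 bases overlap mt-Nd5 on the other strand, and the strand setting of the counting is not given in the sources used here, so its own reads and antisense reads of the plus-strand precursor cannot be told apart. All minus-strand genes together held 1.52, 1.70 and 2.82% of mitochondrial counts in the P1 spleens, against 1.35, 1.35 and 1.84% in WT B cells. P1 5 was highest, and the other P1 spleens lay within the WT range (exact permutation p = 0.3).

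Cytochrome b (mt-Cytb) is the only mitochondrial subunit of complex III, which passes electrons to cytochrome c. It had 2812, 18003 and 65.2 CPM in P1 3, 4 and 5, against 481, 998 and 476 CPM in WT A, B and C. Its log2 fold change was 4.27 ± 1.68 (± SE, adjusted p = 0.0944 by edgeR). As a share of mitochondrial counts it was among the steadiest genes, at 8.26, 10.4 and 7.64% in P1 spleens and 8.46, 8.80 and 8.02% in WT B cells.

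Complex IV, cytochrome c oxidase, takes core subunits from mt-Co1, mt-Co2 and mt-Co3. mt-Co1 had 17722, 91262 and 354 CPM in P1 3, 4 and 5, against 3176, 5282 and 2982 CPM in WT A, B and C. Its log2 fold change was 4.09 ± 1.70 (± SE, adjusted p = 0.110 by edgeR). mt-Co2 and mt-Co3, inside the copied stretch, had 40.1, 249.8 and 2.01 CPM and 45.7, 162 and 0.878 CPM in the P1 spleens, against 5.08, 11.4 and 5.82 CPM and 5.29, 15.9 and 5.58 CPM in WT B cells. mt-Co2 had the smallest adjusted p of the mitochondrial genes, 0.0551 by edgeR, with a log2 fold change of 4.55 ± 1.51 (± SE). Complex IV genes made up 60.2, 59.3 and 52.0% of mitochondrial protein gene counts in P1 spleens and 60.6, 54.996 and 56.6% in WT B cells (exact permutation p = 0.9).

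The ATP synthase genes mt-Atp6 and mt-Atp8, which encode subunits of its membrane part, overlap by 43 bases and lie in the stretch with low counts. mt-Atp6 had 50.4, 275 and 0.753 CPM in P1 3, 4 and 5, against 8.08, 17.9 and 9.02 CPM in WT A, B and C (log2 fold change 4.04 ± 1.57 SE, adjusted p = 0.0895 by edgeR). mt-Atp8 had 1.64, 12.8 and 0 CPM in the P1 spleens, against 0.286, 1.05 and 0.164 CPM in WT B cells. The nuclear copy of mt-Atp6, Gm10925, had a log2 fold change of 4.18 (adjusted p = 0.0889), and Gm28661, the copy of mt-Co2, one of 4.37 (adjusted p = 0.0648), close to the genes they copy.

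The tRNA genes were thinly counted, with 820, 2223 and 4 counts in all in P1 3, 4 and 5, against 134, 248 and 127 in WT A, B and C. Of the 22, 4 had no count in any library (mt-Tn, mt-Ty, mt-Td and mt-Tk), and 17, these included, averaged under 10 counts in both groups. Of the other 5, mt-Tg (glycine), mt-Tl1 and mt-Tl2 (leucine) gave 22, 171 and 2, 7, 102 and 0, and 12, 130 and 2 counts in the P1 spleens, against 10, 5 and 12, 6, 9 and 2, and 5, 8 and 3 in WT B cells. mt-Tp alone gave 720, 1689 and 0 counts in the P1 spleens, against 81, 158 and 83 in WT B cells. Those were 87.8 and 76.0% of the tRNA counts in P1 3 and P1 4, against 60.5 to 65.4% in WT B cells. As a share of mitochondrial counts mt-Tp held 0.204 and 0.130% in P1 3 and P1 4, against 0.102, 0.0976 and 0.115% in WT A, B and C. In P1 5, 0 of 6809 mitochondrial counts allows a share of up to 0.0441%, which is below every WT value. mt-Te gave 42, 48 and 0 counts in the P1 spleens, against 23, 38 and 20 in WT B cells, and its log2 fold change of 1.40 ± 1.14 (± SE, adjusted p = 0.398 by edgeR) was the smallest of the genes tested. Both mt-Tp and mt-Te lie on the minus strand, and the strand setting of the counting is not given. As for mt-Nd6, their own reads and antisense reads of the plus-strand precursor cannot be told apart.

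Dividing each count by the library's mitochondrial total takes out the differences in overall share and leaves the make-up of the mitochondrial RNA, which was far more alike between libraries. The 2 rRNA genes with mt-Nd1, mt-Nd2, mt-Nd4, mt-Nd5, mt-Nd6, mt-Co1 and mt-Cytb held 99.35 to 99.49% of mitochondrial counts in every library. mt-Co1 led with 52.1, 52.6 and 41.4% in P1 3, 4 and 5, against 55.8, 46.6 and 50.3% in WT A, B and C. mt-Rnr2 held 12.2, 9.90 and 17.9% in the P1 spleens, against 7.09, 14.3 and 9.24% in WT B cells. It was second in P1 3 and WT B only. Besides mt-Co1, mt-Nd5 was ahead of it in P1 5 and WT C, and mt-Nd1 (11.3%) and mt-Cytb (10.4%) in P1 4. In WT A, mt-Nd5, mt-Cytb and mt-Nd1 were ahead of it too. P1 5, the library with the fewest mitochondrial counts, lay at an end of the range for 8 of these 9 genes. It had the highest shares of mt-Nd5 (18.5%, against 10.9 to 12.6% in WT B cells), mt-Nd6, mt-Rnr2 and mt-Rnr1 and the lowest of mt-Co1, mt-Nd1 (4.95%, against 7.80 to 9.13% in WT B cells), mt-Cytb and mt-Nd4. By class, rRNA genes held 12.9, 10.8 and 19.6% in P1 spleens and 7.50, 14.8 and 10.6% in WT B cells (exact permutation p = 0.4), and tRNA genes 0.233, 0.171 and 0.0587% against 0.168, 0.153 and 0.176% (exact permutation p = 0.9). Protein genes held the rest.

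**Figure D3:**
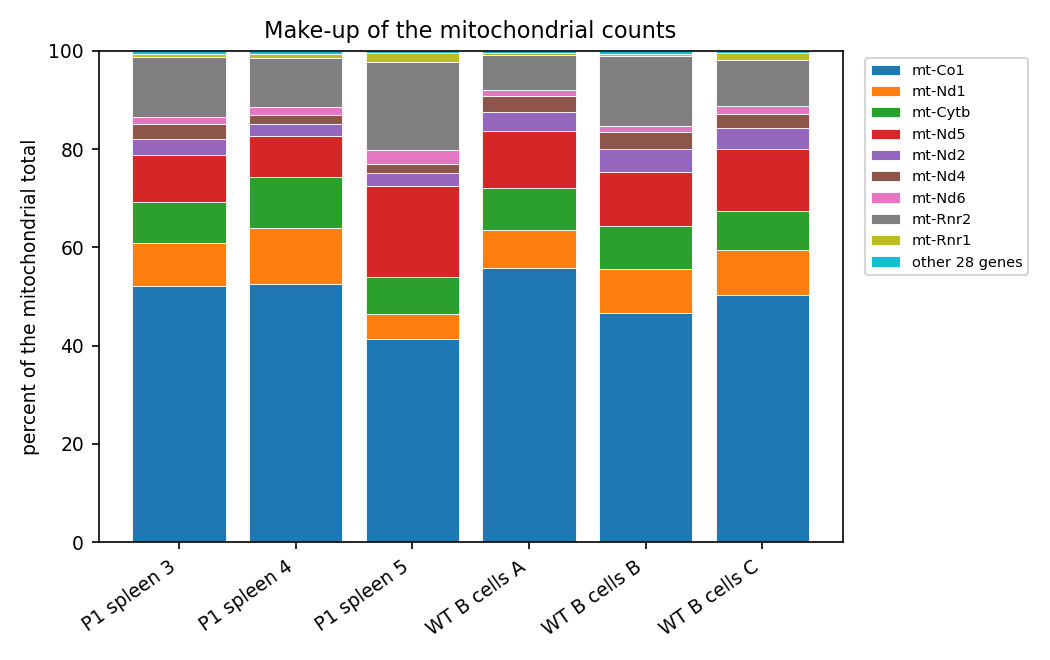
Stacked bars of the percent of each library's mitochondrial counts held by the 9 leading genes and the other 28, P1 spleens left of WT B cells. mt-Co1 holds 41.4 to 55.8% in all libraries, and P1 5 has the largest shares of mt-Nd5 and mt-Rnr2.

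By share of the mitochondrial total the groups did not overlap for 3 of the 17 genes tested, against 4.97% of all genes on the same scale. Nearly all of the latter are nuclear genes, whose counts over the mitochondrial total carry the spread of that total. The 4.97% is therefore no fair yardstick for the mitochondrial genes. For any 1 gene, groups of 3 that do not overlap have a two-sided exact permutation p of 0.1. The 3 of 17 is therefore a description only. mt-Nd2 held 3.25, 2.35 and 2.76% in P1 3, 4 and 5, against 3.93, 4.72 and 4.30% in WT A, B and C, so every P1 spleen lay below every WT library. mt-Co2 held 0.118, 0.144 and 0.235% in the P1 spleens, against 0.0892, 0.10 and 0.0981% in WT B cells. All P1 values of mt-Co2 were above the WT values, that of P1 5 resting on 16 counts (exact 95% interval 0.134 to 0.381%). But mt-Co2 lies inside the copied stretch, and its copy row Gm28661, identical over 681 bases, held more counts in every library. That row had 623, 3079 and 23 counts in P1 3, 4 and 5, against 137, 286 and 136 in WT A, B and C. How reads that fit both rows were divided is not known, so this separation of mt-Co2 is uncertain. mt-Te held 0.0119, 0.00368 and 0% in the P1 spleens, against 0.0289, 0.0235 and 0.0276% in WT B cells, and a share as low as that of the WT libraries was not detectable at the depth of P1 5. In the fit of counts against the mitochondrial total, mt-Nd2 had a log2 fold change of -0.63 ± 2.45 and mt-Co2 one of 0.78 ± 2.41 (± SE, edgeR), and no gene of either genome passed (0.00% of all genes, 0 of 17 mitochondrial genes at an unadjusted p of 0.05, 0 by DESeq2). Standard errors of 2.10 to 2.55 mean that only very large shifts could have passed there. That fit drew its spread on all genes, nearly all nuclear, over mitochondrial totals of 6809 to 1303645 counts in the P1 spleens. Its lack of calls therefore cannot show that the make-up was the same. By share of the library total, no tested mitochondrial gene had groups that did not overlap, against 44.3% of all genes.

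Levels between genes were set side by side per kb, using for mt-Co1 and mt-Nd4 the bases outside the copied stretch, which assumes that none of their counts came from inside it. As percent of mitochondrial counts per kb, mt-Co1 stood at 45.9 ± 5.95 in P1 spleens and 47.9 ± 4.38 in WT B cells (SD, n = 3 each). mt-Nd1 came next, at 8.75 ± 3.37 and 9.03 ± 0.761, and mt-Rnr2, mt-Cytb and mt-Nd5 lay within 1 SD of it in the P1 spleens, at 8.43 ± 2.60, 7.66 ± 1.25 and 6.69 ± 2.99. In WT B cells mt-Cytb was at 7.36 ± 0.340, below mt-Nd1 by more than the spread of either, and mt-Rnr2, mt-Nd5 and mt-Nd4, at 6.47 ± 2.36, 6.41 ± 0.473 and 6.32 ± 0.692, did not differ beyond theirs. mt-Nd4, mt-Nd6 and mt-Nd2 were at 4.50 ± 1.33, 3.66 ± 1.56 and 2.69 ± 0.438 in the P1 spleens. mt-Nd6 and mt-Nd2 were at 2.64 ± 0.529 and 4.16 ± 0.378 in WT B cells. Over its whole length mt-Nd4 was at 1.64 ± 0.485 in P1 spleens and 2.30 ± 0.252 in WT B cells, below the means of mt-Nd6 and mt-Nd2, so its place in the order depends on that assumption. mt-Co1 over its whole length, at 31.5 ± 4.09 and 32.9 ± 3.01, stayed first. mt-Rnr1 was lowest of the rRNA and protein genes that reach outside the stretch, at 1.15 ± 0.598 in P1 spleens and 0.766 ± 0.583 in WT B cells. Every protein gene wholly inside it averaged 0.242 or less in both groups.

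The nuclear genes that build the respiratory chain did not share the order of the mitochondrial ones. Their summed level was 4512, 2263 and 6004 CPM in P1 3, 4 and 5, against 3745, 4257 and 4097 CPM in WT A, B and C. Scaled by TMM (trimmed mean of M values), as in the edgeR test, it was 3992, 3915 and 5529 in the P1 spleens, against 3162, 3890 and 3767 in WT B cells, so P1 4 was lowest only as a share of the library total. P1 5, with the smallest mitochondrial share, was highest on both scales. Mitochondrial protein gene counts were 6.55, 68.3 and 0.114 times the nuclear respiratory chain counts in the P1 spleens, against 1.40, 2.27 and 1.29 times in WT B cells (exact permutation p = 0.4). Of 73 nuclear respiratory chain genes tested, 3 were higher and 1 lower, against 16.9 and 11.0% of all genes, and their median log2 fold change was 0.19 against 0.02. Atpif1, the inhibitor of ATP synthase, had 69.8, 135.8 and 37.1 normalised CPM in the P1 spleens, against 13.6, 16.1 and 14.7 in WT B cells, a log2 fold change of 2.45 ± 0.45 (± SE, adjusted p = 0.00511 by edgeR). Within the P1 group it ranked as the red cell precursor markers did, and their part in it was not tested. Ndufb9 of complex I and Uqcr11 of complex III were higher by 1.30 ± 0.27 and 0.91 ± 0.26 (adjusted p = 0.00908 and 0.0332), and Cox7a2l, a factor for joining complexes III and IV, fell by 0.82 on the log2 scale (adjusted p = 0.0380). The call of Cox7a2l was lost under library totals and without P1 3 or any 1 WT library, that of Uqcr11 under library totals, with no filter on low counts and without any 1 WT library, and that of Ndufb9 under library totals and without WT A or WT B. Atpif1 passed under each of the 10 alternatives.

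**Figure D4:**
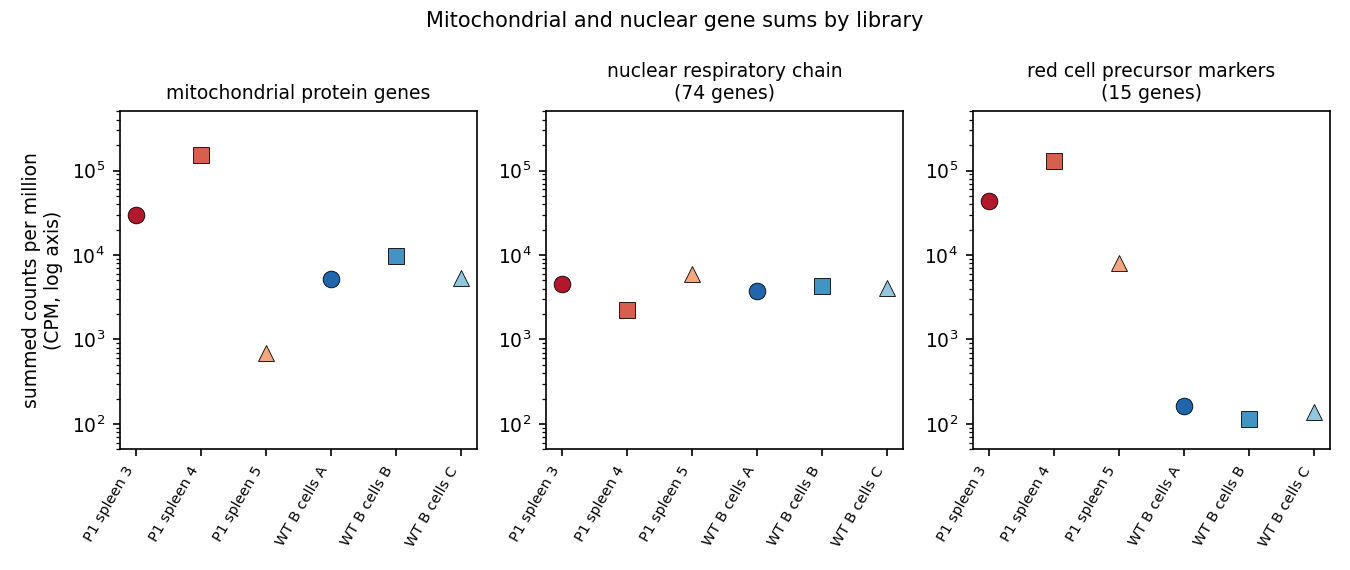
Summed CPM (log axis) by library of mitochondrial protein genes, of 74 nuclear respiratory chain genes and of 15 red cell precursor markers, P1 spleens left of WT B cells. P1 4 is highest for the mitochondrial genes and the red cell markers and, at 2263 CPM of the library total, lowest for the nuclear respiratory chain, which it was not after TMM scaling (3915 against 3162 to 3890 in WT B cells).

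Among 169 nuclear genes that serve mitochondrial transcription, RNA processing, translation and biogenesis, 4 were higher and 10 lower, against 16.9 and 11.0% of all genes. Their median log2 fold change was -0.01, against 0.02 over all genes. Of the 23 genes of mitochondrial transcription and DNA maintenance 5 fell and none rose, with a median of -0.46, where 11.0% of all genes fell. Tk2, which phosphorylates pyrimidine deoxynucleosides in mitochondria, had 31.9, 20.6 and 34.0 normalised CPM in P1 3, 4 and 5, against 107.9, 92.2 and 108.9 in WT A, B and C (log2 fold change -1.83 ± 0.27 SE, adjusted p = 0.00217 by edgeR). Dguok, its purine counterpart, fell by 1.01 (adjusted p = 0.0387), Rrm2b, a ribonucleotide reductase subunit, by 1.75 (adjusted p = 0.0169), and Slc25a36, a pyrimidine nucleotide carrier, by 1.22 (adjusted p = 0.0266). Polg2, the accessory subunit of the mitochondrial DNA polymerase, fell by 1.30 (adjusted p = 0.0204). Its catalytic partner Polg had a log2 fold change of 0.10 (adjusted p = 0.818). Tfam, which packages the genome and starts its transcription, had 25.8, 15.7 and 38.3 normalised CPM in the P1 spleens, against 54.9, 49.6 and 54.4 in WT B cells, and just missed the threshold (log2 fold change -0.99 ± 0.33 SE, adjusted p = 0.0571). The RNA polymerase, Polrmt, had a log2 fold change of -0.24 ± 0.36 (adjusted p = 0.668), the DNA helicase Twnk one of 0.15 (adjusted p = 0.835) and the nucleotide carrier Slc25a33 one of 0.04 (adjusted p = 0.962). Tk2 passed under each of the 10 alternatives, while the calls of Dguok and Slc25a36 were lost without any 1 WT library, that of Polg2 without WT A or WT C and that of Rrm2b without WT A or WT B. The call of Dguok was also lost under library totals. The P1 spleens held fewer B cell marker counts and more of other cells, whose part in these differences was not tested.

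Of the biogenesis regulators, Ppargc1a, a coactivator of mitochondrial gene programmes, had 4, 1 and 0 counts in the P1 spleens, against 69, 52 and 41 in WT B cells (log2 fold change -4.09 ± 0.74 SE, adjusted p = 0.0047 by edgeR), and the other 9 genes did not pass. Of 35 genes for RNA processing and stability, the oligoribonuclease Rexo2 rose by 0.96 ± 0.22 (adjusted p = 0.0140) and Nsun4, which acts on the mitochondrial ribosome's RNA, fell by 1.17 (adjusted p = 0.0163). Lrpprc, which stabilises mitochondrial mRNAs, had a log2 fold change of -0.19 (adjusted p = 0.557). Of 23 tRNA synthetases, Mars2, which charges the mitochondrial methionine tRNA, fell by 1.56 (adjusted p = 0.00692), and Gars, which serves cytosol and mitochondria, rose by 1.50 ± 0.46 (adjusted p = 0.0434). Of 79 mitochondrial ribosomal proteins 75 did not pass, 2 being higher and 2 lower where 16.9 and 11.0% of all genes were. Mrpl33 and Mrpl27 rose by 1.43 ± 0.32 and 1.08 ± 0.30 (adjusted p = 0.0125 and 0.0271), and Mrpl54 and Mrpl24 fell by 1.35 and 0.82 (adjusted p = 0.00736 and 0.0462). Leaving out any 1 WT library left no higher call among the 169 genes, so all 4 higher calls, Rexo2, Gars, Mrpl33 and Mrpl27, were lost, and 4 to 5 lower ones remained. Of the lower genes, Tk2, Mars2, Mrpl54 and Ppargc1a passed under each of the 10 alternatives, and Nsun4 and Mrpl24 were lost without any 1 WT library. Library totals also lost Nsun4, Mrpl24 and all 4 higher calls. Mrpl24 was lost without P1 3 or P1 4 too, and Rexo2 and Mrpl27 with no filter on low counts.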

How the data were processed

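RNA of 3 P1 spleens and 3 samples of WT B cells was measured by RNA-seq. The deposited table holds raw read counts per gene, made by the authors with Trim Galore, HISAT2 and featureCounts on GRCm39, per the submitters' processing notes, which give no versions or settings. No column belonged to another sample. Gene names were taken from reference tables (91.3% of rows). Mitochondrial coordinates were the same in the GRCm38 annotation (GENCODE M21) for all 37 genes, whose transcripts supplied the sequences. Nuclear copies were sought with blastn 2.17.0 (word size 20).

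Genes were filtered by filterByExpr, scaled by trimmed mean of M values (TMM) and tested with edgeR 4.0.16 (quasi-likelihood, robust) in R 4.3.3, P1 spleen over WT B cells, with Benjamini-Hochberg adjustment over all genes tested. Standard errors were worked back from the edgeR test, as the absolute log2 fold change over the square root of its F statistic. A second fit used the mitochondrial total as library size. DESeq2 1.42.0, library totals, no filter, TMM without mitochondrial rows and leaving out each library were the alternatives. Library values were compared by two-sided exact permutation tests (scipy 1.17.1). Intervals are exact binomial and, like the limit of 3 counts for a count of 0, cover counting error only. On simulated data for this comparison (15143 genes), edgeR called 46 of 97 genes with a true 4-fold change, 95 of 99 with a 16-fold one, and 12 of 14947 unchanged genes. The changed genes were drawn at random from all genes, so these rates do not give the power for the mitochondrial genes. Standard errors of the latter were 1.14 to 1.76. Named genes were any mitochondrial gene, from each nuclear list the 3 of smallest adjusted p and the most abundant 1, and any member of lists of 26 or fewer. Members, lists and tests were chosen with earlier results of these data known. Of 333 list entries, 326 matched a row.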

Additional observations from a re-analysis of the deposited data

How the results depend on the processing

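Against no mitochondrial gene called higher in the main analysis, DESeq2 called 9, library totals 1 (mt-Tg) and testing without a filter 1 (mt-Tt), and leaving out 1 library gave 0 to 19, with 19 only without P1 5. TMM without the mitochondrial rows changed no mitochondrial call. Under library totals all genes had a median of -0.24 (log2), and the mitochondrial estimates were 0.81 to 3.71. Of the nuclear respiratory chain genes, 3 were higher in the main analysis, 7 by DESeq2 and 1 under library totals (1 to 5 with 1 library left out), and 1 was lower, 0 under library totals (0 to 2 with 1 left out). Of the mitochondrial expression genes, 4 were higher, 9 by DESeq2 and 0 under library totals (0 to 12 with 1 left out), and 10 lower (4 to 16 with 1 left out). Of all genes, 16.9% were higher and 11.0% lower in the main analysis. DESeq2 called 20.1% of all genes higher, and without P1 5 the test called 19.4% higher. The shares of all genes under the other settings are not given here. The cause of the shifts in these counts was not tested. With 1 library left out, the difference P1 minus WT changed sign for the tRNA share of mitochondrial counts (-0.0511 to 0.0358 percentage points), the ratio of mt-Rnr2 to mt-Rnr1 (-7.52 to 0.785), the complex I share (-3.47 to 1.32 percentage points) and the complex IV share (-1.75 to 2.38 percentage points), none of which was called. No paired analysis was possible because the WT columns carry no mouse number that the P1 labels share. The 6809 mitochondrial counts of P1 5 limit what can be said of its tRNA genes and of the genes inside the copied stretch.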
